A study of Saccharomyces cerevisiae with 6 samples.

Results

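The DNA replication machinery genes of budding yeast are the 45 genes whose products mark replication origins, load and start the replicative helicase, copy both strands, hold the polymerases on DNA and keep the fork together. They were chosen by gene symbol from a fixed list, and all 45 were found among the 5449 genes of the arrays. Each had 1 probe set, the group of short probes on the array that reads 1 gene, and none of these probe sets is of the kinds marked s or x, which can match several transcripts. Transcript levels were measured on 6 Affymetrix arrays, each hybridised with biotin-labelled cRNA from the total RNA of 1 mid-log culture in rich glucose medium. The npl3 deletion arrays (n = 3) came from strain WNPL3B1-2B, in which KanMX replaces NPL3, the gene of an RNA-binding protein that coats mRNA as it is made and exported. The wild type arrays (n = 3) came from W303-1A bar1∆. Both strains are MATa and lack BAR1, with HphMX in its place, so the controls carry that deletion too. Both also carry can1-100, the auxotrophic alleles leu2-3,112 and ura3-1, and further trp1-1, ade2-1 and his3-11,15. The labels call the arrays of a group biological replicates and name 1 strain for each genotype. The alleles are given as the labels state them and were not tested, and LEU2 read very differently in the strains (below).

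Replication starts in G1, when the origin recognition complex (ORC) and Cdc6 load the 6 different MCM proteins onto origin DNA as an inactive ring. In S phase, Cdc45 and the GINS complex join the ring with the help of firing factors, which makes the active helicase, and polymerases alpha, epsilon and delta follow it. PCNA, a sliding clamp set on DNA by the clamp loader RFC, keeps the polymerases in place, and a fork protection complex ties the helicase to the polymerases. In dividing yeast many of these genes are transcribed in a burst at the G1 to S transition. The arrays came from unsynchronised cultures, so a value is an average over all phases of the cell cycle and over all cells, and a smaller share of cells in a phase cannot be told apart from less RNA per cell.

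NPL3 itself fell by 7.19 on the log2 scale (SE 0.16, limma adjusted p = 1.2e-07), to 3.96 ± 0.14 in the npl3 deletion, against 11.15 ± 0.35 in wild type (mean ± SD, n = 3 arrays each). The pheromone receptor gene STE2, which marks MATa cells, read 11.18 and 11.14 on average in the npl3 deletion and in wild type, and BAR1 lay below the background level of 2.13 in both strains. Of 7 genes specific to MATa cells, 5 fell, MFA1 the most (fell by 0.88), and of 4 specific to MATalpha cells, 2 fell, MF(ALPHA)1 the most (fell by 0.89), and SAG1 rose by 0.48. At a limma adjusted p of at most 0.05, 71.4% of the MATa list and 75.0% of the MATalpha list changed, against 61.8% of all genes. Of all genes, 28.9% fell and 32.9% rose. Control probe sets differed between the genotypes too. The probe set at the 5′ end minus the one at the 3′ end of the same transcript, averaged over 8 yeast control genes, was -0.85 ± 0.02 in the npl3 deletion and -1.39 ± 0.07 in wild type, higher in the npl3 deletion for 8 of 8 genes and without overlap of the groups for any of them (exact two-sided permutation p = 0.1, the lowest p available to groups of 3 and 3). Hybridization controls averaged 8.67 ± 0.60 in the npl3 deletion and 9.31 ± 0.08 in wild type (exact permutation p = 0.1), and npl3 deletion replicate 1 was the lowest at 7.99. The part of these differences in the values that follow was not tested.

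Of the 45 replication genes, 17 rose and 9 fell in the npl3 deletion, and 19 did not pass the test (limma, adjusted over all 5449 genes, threshold 0.05). The 26 that passed make up 57.8% of the list, and 61.8% of all genes tested passed, or 63.1% of the 4061 genes with a mean level in the same range as these genes. Rises made up 37.8% of the list, against 32.9% of all genes, and falls 20% of the list, against 28.9% of all genes. The median difference, npl3 deletion minus wild type, was 0.04 for the replication genes and 0.01 for all genes on the log2 scale. The share that passed and the median lay near those of all genes, and the list held changes in both directions.

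The sizes were small. Only PSF1 changed by at least 1.5-fold, which is 2.22% of the list, whereas 16.9% of all genes and 14.3% of those in the same range of levels did so. The median size of the difference, without its sign, was 0.18 for the replication genes and 0.23 for all genes (0.22 in the same range of levels). After PSF1 the next largest difference was 0.53, that of CDC6. Replicate arrays were close to each other, with a median SD per gene of 0.05 in the npl3 deletion and 0.07 in wild type. All 45 genes were well above the background level on every array, with values from 6.47 to 10.79.

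**Figure D1:**
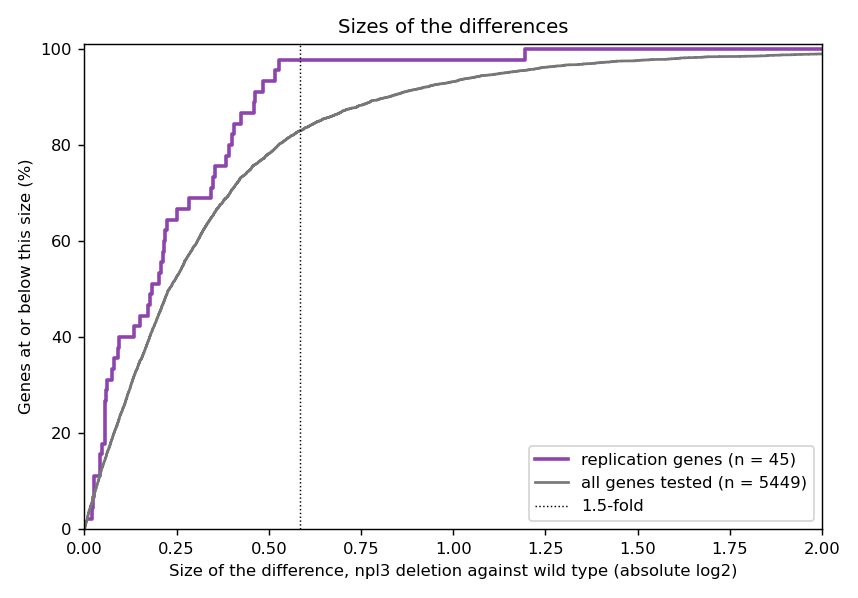
Cumulative share of genes (%, vertical axis) by the absolute log2 difference between npl3 deletion and wild type (horizontal axis), for the 45 replication genes and for all 5449 genes tested. The line of the replication genes passes the dotted 1.5-fold mark with PSF1 alone still to come, while 16.9% of all genes were called beyond that mark.

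The genes of helicase activation held the largest rise. Of the 8, 4 rose, none fell and 4 missed the threshold, while of all genes 32.9% rose and 28.9% fell. The median of the 8 was 0.15. GINS is a complex of 4 small proteins, encoded by PSF1, PSF2, PSF3 and SLD5, that binds the MCM ring together with Cdc45. PSF1 (YDR013W, chromosome IV) read 9.19, 9.14 and 9.24 on the npl3 deletion arrays, against 8.09, 7.95 and 7.96 on the wild type arrays. Every npl3 deletion array was thus more than 1 log2 unit above every wild type array. The difference was 1.20 (SE 0.06, adjusted p = 2.4e-06), a 2.29-fold higher level. PSF3 (YOL146W) stood at 8.13, 8.14 and 8.09 in the npl3 deletion and at 7.65, 7.52 and 7.63 in wild type, a rise of 0.52 (SE 0.05, adjusted p = 9.4e-05). Its groups were also far apart relative to the spread within them. PSF2 (YJL072C) rose by 0.25 (SE 0.06, adjusted p = 0.0057), with 7.86, 7.89 and 7.90 in the npl3 deletion, against 7.72, 7.54 and 7.63 in wild type. SLD5 (YDR489W), the other GINS subunit gene, read 7.95, 8.00 and 7.96 in the npl3 deletion and 7.99, 7.89 and 7.90 in wild type, and these overlapped. Its difference was 0.04 with a 95% interval of -0.07 to 0.15, which lies below the interval of PSF3, 0.40 to 0.64, and that of PSF1, 1.06 to 1.33. The 4 subunit genes of 1 complex therefore had differences between 0.04 and 1.20, all of them positive.

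Among the firing factors, SLD2 (YKL108W), whose product binds Dpb11 once it is phosphorylated by the S-phase kinase, rose by 0.22 (SE 0.05, adjusted p = 0.0098). It read 6.80, 6.90 and 6.95 in the npl3 deletion, against 6.64, 6.70 and 6.66 in wild type, and the lowest npl3 deletion array still lay above the highest wild type array. SLD3, the other kinase target, DPB11, which bridges them, and CDC45 were not called. Their differences were 0.09, 0.02 and 0.06.

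**Figure D2:**
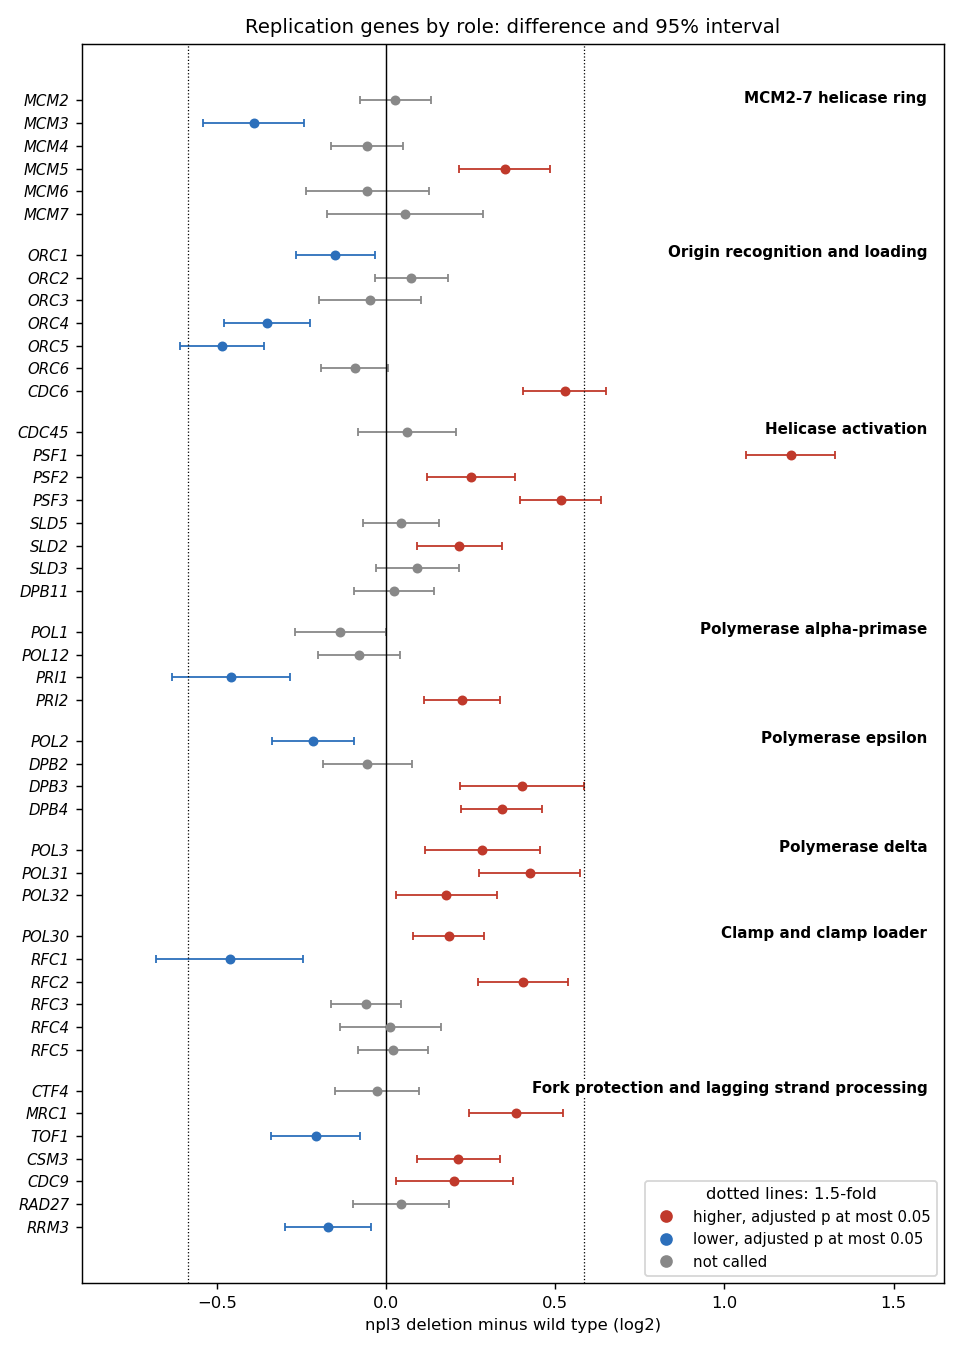
Difference between npl3 deletion and wild type (log2, horizontal axis) for each of the 45 replication genes, grouped by role, with bars for the 95% interval of the limma fit over 3 arrays per genotype. Red points rose, blue points fell and grey points were not called, and PSF1 at 1.20 is the only point beyond the dotted 1.5-fold lines.

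At the origins, ORC subunit genes were lower or not called, while the gene of their loading partner was higher. ORC5 (YNL261W), which encodes an ATP-binding subunit, had the largest fall of the list. It read 7.50, 7.49 and 7.41 in the npl3 deletion, against 8.02, 7.94 and 7.89 in wild type, and fell by 0.49 (SE 0.05, adjusted p = 0.00016). ORC4 (YPR162C) stood at 7.11, 7.21 and 7.12 in the npl3 deletion and at 7.57, 7.44 and 7.49 in wild type, and fell by 0.35 (SE 0.05, adjusted p = 0.0009). In both genes the highest npl3 deletion array was below the lowest wild type array. ORC1 (YML065W), the gene of the main ATPase subunit, fell by 0.15 (SE 0.05, adjusted p = 0.032), with 8.24, 8.35 and 8.26 in the npl3 deletion, against 8.45, 8.46 and 8.39 in wild type. This call was lost without npl3 deletion replicate 1 (adjusted p = 0.09), without npl3 deletion replicate 3 (0.092) and without wild type replicate 1 (0.069) or 2 (0.085). It was also lost under median centring and quantile normalization (adjusted p = 0.052 for each). ORC2, ORC3 and ORC6 were not called, with differences of 0.07, -0.05 and -0.09.

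CDC6 (YJL194W, chromosome X) encodes the ATPase that joins ORC at the origin and loads the MCM ring, and its transcript is known to peak late in mitosis and in G1. It read 7.82, 7.80 and 7.81 in the npl3 deletion, against 7.19, 7.33 and 7.33 in wild type. The npl3 deletion arrays lay within 0.02 of each other and all above the wild type arrays. The rise of 0.53 (SE 0.05, adjusted p = 9.4e-05) is 1.44-fold. TAH11, the gene of the Cdt1 protein that brings the MCM ring to ORC and Cdc6, was lower. It belongs to a separate list of other replication genes, and fell by 0.30 (SE 0.05, adjusted p = 0.00082).

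The 6 MCM ring genes split. MCM5 (YLR274W) rose by 0.35 (SE 0.06, adjusted p = 0.0012), with 8.43, 8.53 and 8.53 in the npl3 deletion, against 8.08, 8.23 and 8.13 in wild type. MCM3 (YEL032W) fell by 0.39 (SE 0.06, adjusted p = 0.0012), with 8.31, 8.20 and 8.24 in the npl3 deletion, against 8.68, 8.72 and 8.53 in wild type. Neither gene had overlapping groups, and their products sit side by side in the ring. MCM2, MCM4, MCM6 and MCM7 were not called, and their differences ran from -0.06 to 0.06. For MCM7 the spread in wild type was wide, since wild type replicate 1 read 8.84 and the other wild type arrays 9.20 and 9.22.

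All 3 subunit genes of polymerase delta, which copies most of the lagging strand, rose, as did 32.9% of all genes. POL31 (YJR006W), the gene of the second subunit, read 8.03, 8.21 and 8.18 in the npl3 deletion, against 7.65, 7.73 and 7.77 in wild type, a rise of 0.42 (SE 0.06, adjusted p = 0.00079). The catalytic subunit gene POL3 (YDL102W) read 8.57, 8.50 and 8.57 in the npl3 deletion and 8.36, 8.32 and 8.10 in wild type, a rise of 0.28 (SE 0.07, adjusted p = 0.011). In these genes the groups stood apart. POL32 (YJR043C), the gene of the subunit that binds PCNA, stood at 8.50, 8.55 and 8.64 in the npl3 deletion and at 8.49, 8.31 and 8.36 in wild type. Here the lowest npl3 deletion array and the highest wild type array differed by only 0.01. Its rise of 0.18 (SE 0.06, adjusted p = 0.042) was not called without npl3 deletion replicate 2 (adjusted p = 0.087) or 3 (0.14), nor without wild type replicate 2 (0.12) or 3 (0.11).

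Polymerase epsilon, the leading strand polymerase, was split between its catalytic subunit and its small subunits. POL2 (YNL262W), which encodes the catalytic subunit, fell by 0.22 (SE 0.05, adjusted p = 0.0077), with 8.03, 8.05 and 8.16 in the npl3 deletion, against 8.32, 8.31 and 8.27 in wild type. DPB3 and DPB4 encode the pair of small histone-fold subunits. DPB3 (YBR278W) rose by 0.40 (SE 0.08, adjusted p = 0.0031), with 7.53, 7.45 and 7.38 in the npl3 deletion, against 7.14, 6.89 and 7.13 in wild type. DPB4 (YDR121W) rose by 0.34 (SE 0.05, adjusted p = 0.00079), with 9.08, 9.01 and 9.03 in the npl3 deletion, against 8.77, 8.65 and 8.67 in wild type. The histone-fold partners thus moved the same way and by similar amounts, with intervals of 0.22 to 0.59 for DPB3 and 0.22 to 0.46 for DPB4. DPB2, the gene of the essential second subunit that also binds GINS, differed by -0.06 and was not called.

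The primase that polymerase alpha carries lays down the RNA primers, and its subunit genes went opposite ways. PRI1 (YIR008C), the gene of the catalytic primase subunit, fell by 0.46 (SE 0.07, adjusted p = 0.0012), with 7.42, 7.55 and 7.47 in the npl3 deletion, against 8.08, 7.92 and 7.82 in wild type. PRI2 (YKL045W), the gene of the large primase subunit, rose by 0.22 (SE 0.05, adjusted p = 0.0047), with 8.63, 8.56 and 8.56 in the npl3 deletion, against 8.32, 8.41 and 8.35 in wild type. Both had groups that did not overlap. POL1, the gene of the polymerase itself, read 8.79, 8.84 and 8.82 in the npl3 deletion and 8.85, 8.99 and 9.03 in wild type. Its difference of -0.14 missed the threshold (adjusted p = 0.075) although the groups did not overlap, and it was called without wild type replicate 1 (difference -0.19, adjusted p = 0.015). POL12 differed by -0.08 and was not called.

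POL30 (YBR088C), the gene of PCNA, rose by 0.18 (SE 0.05, adjusted p = 0.009). It read 10.72, 10.73 and 10.79 in the npl3 deletion, against 10.53, 10.56 and 10.59 in wild type, a small rise with little spread in either group. Of the 5 subunit genes of RFC, RFC2 (YJR068W) rose by 0.40 (SE 0.06, adjusted p = 0.00057), with 8.94, 9.00 and 9.03 in the npl3 deletion, against 8.58, 8.50 and 8.67 in wild type. RFC1 (YOR217W) encodes the large subunit, the one that makes this clamp loader specific for replication, and it fell by 0.46 (SE 0.09, adjusted p = 0.0034). The RFC1 values were 8.37, 8.24 and 8.44 in the npl3 deletion, against 8.61, 8.91 and 8.91 in wild type, so wild type replicate 1 stood lower than the other wild type arrays but still above the npl3 deletion. RFC3, RFC4 and RFC5 were not called, with differences between -0.06 and 0.02.

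The fork protection complex consists of Mrc1, Tof1 and Csm3, and it also passes the signal of a stalled fork to the checkpoint kinase. MRC1 (YCL061C) rose by 0.38 (SE 0.06, adjusted p = 0.0009), with 8.11, 8.11 and 8.17 in the npl3 deletion, against 7.67, 7.86 and 7.71 in wild type. CSM3 (YMR048W) rose by 0.21 (SE 0.05, adjusted p = 0.0088), with 6.92, 6.84 and 6.77 in the npl3 deletion, against 6.67, 6.61 and 6.62 in wild type. TOF1 went the other way, although its product forms a pair with Csm3. TOF1 (YNL273W) read 7.51, 7.37 and 7.50 in the npl3 deletion and 7.73, 7.63 and 7.64 in wild type, and fell by 0.21 (SE 0.06, adjusted p = 0.014). CTF4, the gene of the hub that links the helicase to polymerase alpha, differed by -0.03 and was not called.

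CDC9 encodes the ligase that seals Okazaki fragments, RAD27 the flap endonuclease that trims them and RRM3 a helicase that helps forks past bound proteins. CDC9 (YDL164C) read 8.51, 8.49 and 8.41 in the npl3 deletion and 8.13, 8.41 and 8.26 in wild type, where the spread was wide. The highest wild type array lay just below the lowest npl3 deletion array. Its rise of 0.20 (SE 0.07, adjusted p = 0.046) was not called without any one of 5 of the 6 arrays, the exception being wild type replicate 2, and its adjusted p then ran from 0.064 to 0.12. RRM3 (YHR031C) fell by 0.17 (SE 0.05, adjusted p = 0.027), with 7.30, 7.15 and 7.19 in the npl3 deletion, against 7.42, 7.37 and 7.36 in wild type. That call was lost without npl3 deletion replicate 2 (adjusted p = 0.092) or 3 (0.081) and without wild type replicate 1 (0.067), 2 (0.054) or 3 (0.053). RAD27 differed by 0.04 and was not called.

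**Figure D3:**
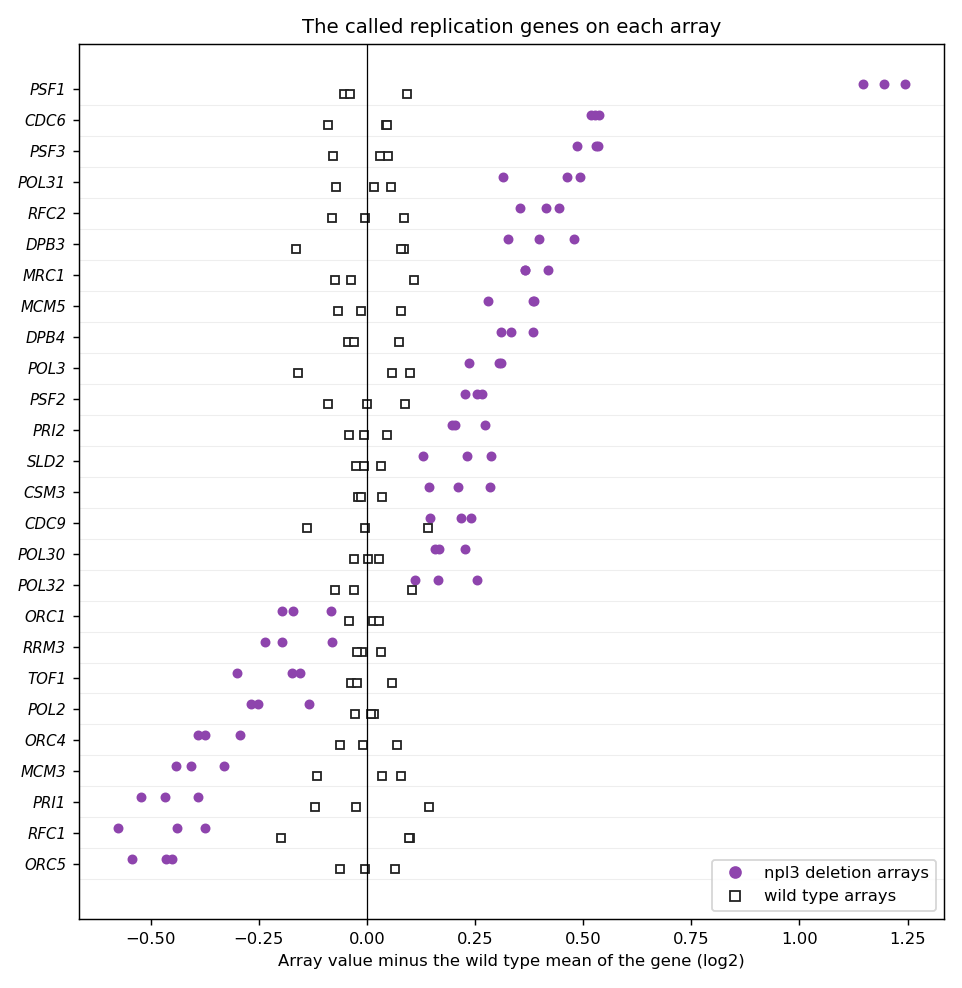
Value of each array minus the wild type mean of the gene (log2, horizontal axis) for the 26 replication genes that passed the test, ordered by difference. Filled circles are the 3 npl3 deletion arrays and open squares the 3 wild type arrays. The groups do not overlap in any of the 26 genes, and in CDC9 and POL32 they nearly touch.

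For all 26 called genes the groups did not overlap, so the 3 npl3 deletion arrays necessarily lay on the same side of the wild type mean. Without overlap were 30 of the 45 genes (66.7%), against 68.8% of all genes tested. The 4 that were not called although their groups stood apart were ORC2, ORC6, POL1 and RFC3. The 19 uncalled genes had differences from -0.14 to 0.09, and their 95% intervals reached no further than -0.27 and 0.29. A change of 1.5-fold, 0.58 on this scale, lies outside all of these intervals. A smaller change within a gene's own interval is compatible with its values.

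The direction of the difference went with the length of the gene model. The lengths run from 585 nucleotides for PSF3 to 6669 for POL2. All 45 are multiples of 3, as coding lengths are, though this alone does not show that they are coding lengths. Of the 14 replication genes of up to 1200 nucleotides, 9 rose and none fell, with a median of 0.20. The 9 that rose are PSF1, PSF2, PSF3, DPB3, DPB4, POL30, POL32, RFC2 and CSM3. PRI1, which fell by 0.46, lies just above this limit at 1230 nucleotides, so the absence of falls depends on where the limit was set. Of the 18 genes between 1200 and 2400 nucleotides, 6 rose and 4 fell, and of the 13 longer ones, 2 rose (POL3 and MRC1) and 5 fell, with a median of -0.06. The longer genes that fell were MCM3, ORC1, POL2, RFC1 and TOF1. Across the 45 genes, length and difference had a Spearman rho of -0.44, and of -0.40 without PSF1. Measured on each npl3 deletion array against the wild type mean, rho was -0.41, -0.47 and -0.43. The same wild type mean enters each of these values, so they are not independent of each other. The genes share the same 6 arrays and are not independent replicates, so this is a description without a test.

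Over all genes tested rho was -0.18. Of the 2646 with up to 1200 nucleotides, 39.6% rose and 24.2% fell (median 0.07). Between 1200 and 2400 nucleotides, 27.0% of 1982 rose and 35.2% fell (median -0.04), and of the 821 above 2400 nucleotides, 25.7% rose and 29.1% fell (median -0.03), so over all genes the share that fell was highest in the middle class. The length limits were chosen after the values were seen. The 5′ minus 3′ value of the control genes (-0.85 in the npl3 deletion, -1.39 in wild type) also differed between the genotypes without overlap, and its part in the relation with length was not tested.

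**Figure D4:**
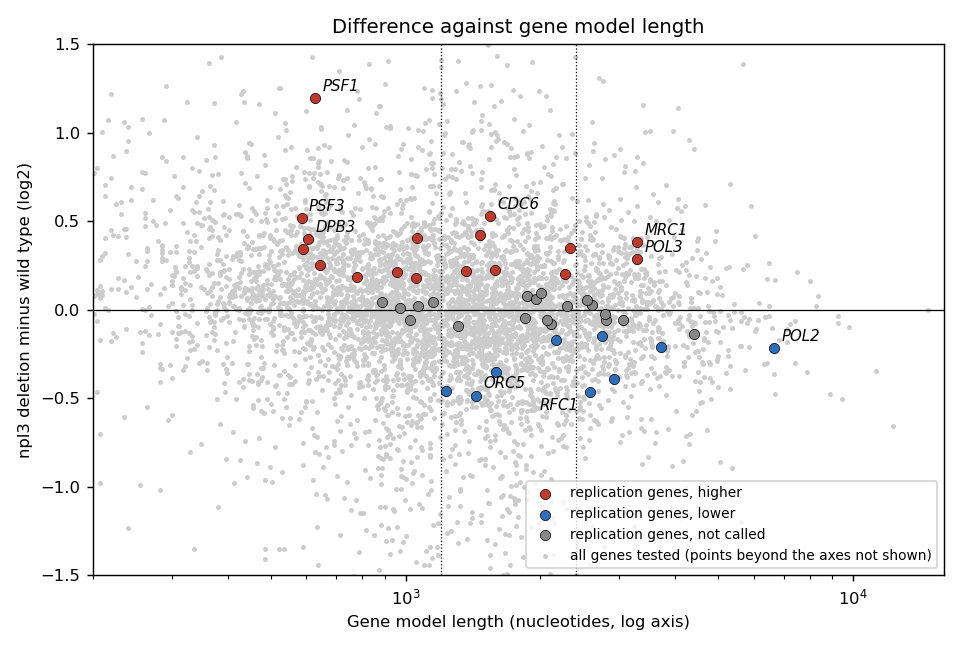
Difference between npl3 deletion and wild type (log2, vertical axis) against gene model length (nucleotides, log axis) for the 45 replication genes, coloured by call, over all genes tested in light grey. Dotted lines mark 1200 and 2400 nucleotides. No red or blue point of the shortest class lies below 0, and 5 of the 7 called genes of the longest class do. PRI1, which fell, lies just past the first dotted line at 1230 nucleotides.

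The replication genes were spread over the chromosomes, and none lies on chromosome I. Of the 90 genes tested there, 74 rose and 6 fell, with a median difference of 0.83, against 0.01 for the genes of all other chromosomes. Each genotype came from a single strain. Effects of the NPL3 deletion on the 45 genes therefore cannot be told apart from those of other strain differences, this one included. LEU2, for which the labels give the same mutant allele in both strains, read higher in the npl3 deletion by 5.66 on the log2 scale. AIF1 read lower by 5.95 (difference -5.95). The cause of the LEU2 and AIF1 differences was not tested. RFA1, the gene of the large subunit of the single-strand binding protein RPA, lies on chromosome I, and it rose by 0.89 (SE 0.06, adjusted p = 1.5e-05). Of its partners on other chromosomes, RFA2 fell by 0.26 (SE 0.05, adjusted p = 0.0033) and RFA3 differed by 0.08 and was not called. ORC5 lies directly downstream of POL2 on the same strand of chromosome XIV, and both fell. POL30 and RFC5 are convergent neighbours on chromosome II, of which POL30 rose and RFC5 was not called.

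PSF1 did not rise together with its surroundings. RPL4B, the gene directly upstream on the same strand, fell by 0.24 (adjusted p = 0.011; its near-identical copy makes this value uncertain), and RAD61, directly downstream on the same strand, differed by -0.07 and was not called. Over the 26 called replication genes, 50 direct protein-coding neighbours were tested. Replication genes that lie side by side are included: ORC5 and POL2 count for each other, and RFC5 counts for POL30. Of the 50, 18 were called in the direction of the replication gene, 9 in the other direction and 23 were not called. The share called, 54%, stands beside 61.8% of all genes, of which 32.9% rose and 28.9% fell.

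Other replication genes, from a list of 31 that are not among the 45, were 11 higher, 9 lower and 11 not called. The share called was 64.5%, near the 61.8% of all genes, and their median was 0.03. The largest fall was that of MCM10, whose product is needed to activate the loaded helicase. MCM10 read 4.80, 5.01 and 4.36 in the npl3 deletion, against 6.07, 6.55 and 6.41 in wild type, and fell by 1.62 (SE 0.18, adjusted p = 0.00016), to a level 3.06-fold below that of wild type. Its difference was thus larger than that of any of the 45, and its groups were more than 1 log2 unit apart. The largest rise was that of ECO1, the gene of the acetyltransferase that establishes sister chromatid cohesion at the fork. ECO1 rose by 0.64 (SE 0.06, adjusted p = 7e-05), with 6.53, 6.46 and 6.43 in the npl3 deletion, against 5.84, 5.92 and 5.74 in wild type. DCC1 and CTF8, which encode subunits of the alternative clamp loader that acts in cohesion, rose by 0.46 and 0.45 (adjusted p = 0.00011 and 0.00066), and CTF18, the gene of its large subunit, was not called at -0.02.

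Of 14 regulators of the G1 to S transition, activators and inhibitors together, 5 rose, 1 fell and 8 were not called, so 42.9% passed the test, against 61.8% of all genes. The S-phase cyclin gene CLB6 had the largest rise, at 0.60 (SE 0.06, adjusted p = 0.00012), and SIC1, the gene of the inhibitor of S-phase cyclin kinases, fell by 0.18 (SE 0.06, adjusted p = 0.029). The kinase subunit gene CKS1 rose by 0.57, SWI4, the gene of the DNA-binding subunit of the factor SBF, by 0.34, STB1 by 0.24 and NRM1, the gene of a repressor of MBF, by 0.17. MBP1, the gene of the DNA-binding subunit of the factor MBF that drives many replication genes, differed by -0.03 and was not called, and CLB5, the other S-phase cyclin gene, by 0.06. Markers of other phases were called in shares of 44.4% (histone genes), 66.7% (G2/M genes) and 91.7% (genes of the M to G1 transition), against 61.8% of all genes. Of 9 histone genes, which are transcribed in S phase and of which 2 were read by probe sets that can match several transcripts, 4 fell and none rose. Of 12 G2/M genes, 8 rose and none fell. Of 12 genes of the M to G1 transition, 9 fell and 2 rose, and SIC1, also in the G1 to S list, is among those that fell. The largest of these changes were the fall of HTA1 among the histone genes, which fell by 0.36, the rise of KIN3 (1.40, on chromosome I) among the G2/M genes, and, in the M to G1 list, the chitinase gene CTS1, which fell by 1.13, and PRY3, which rose by 0.44. The part of cell cycle phase in the values of the replication genes was not tested.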

How the data were processed

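The authors deposited normalized log2 values for each probe set on each array. The submitters' processing notes name RMA and limma; their settings are not given here. RMA equalises the arrays, so it hides a change common to most transcripts. Nothing was normalized again for the main results.

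Of 10928 probe sets, 5498 matched a gene of the reference table (assembly R64), and the brightest by the mean of all 6 arrays stood for a gene. The background level (2.13) is the 95th percentile of 1746 probe sets with other gene symbols. No sequence was used here, so the planned count of promoter motifs was not run.

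Differences were fitted over all 5449 genes in R 4.3.3 with limma 3.58.1 (functions lmFit and eBayes, no covariates, two-sided), with Benjamini-Hochberg adjustment over all genes and a threshold of 0.05. The procedure was tested on simulated data in which few genes changed and noise was independent between arrays. That setting differs from these data, where most genes passed, so it does not show how the fit behaves here. The number of arrays limits the precision. Same-numbered arrays did not correlate positively (r from -0.19 to -0.07), and the main fit used no pairing. Other settings tried were leaving out each array, a replicate block, other scalings, filters on dim genes, other variance models, array weights, averaged probe sets and stricter thresholds. Leaving out s and x probe sets, or the genes of chromosome I, was added after seeing the data. The members and lists were chosen with earlier results of these data known. Per-array values are given for each called gene, and of the other lists the largest rise and fall were named; further genes were named after their values were seen.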

Additional observations from a re-analysis of the deposited data

How the results depend on the processing

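With 16 refits of the data, 22 of the 26 called replication genes kept their call and direction under each refit that included them (SLD2, DPB3 and CSM3 were left out of the refit without the lowest mean levels), and ORC1, POL32, CDC9 and RRM3 lost theirs under at least 1. No called gene changed direction. SLD3 and POL1, not called in the main data, were called under at least 1. Leaving out 1 array gave 22 to 24 called genes (15 to 16 higher, 7 to 8 lower) and 2926 to 3288 called genes in all, and the median difference of the 45 genes then lay between 0.0215 and 0.0593. That median, 0.0425 in the main data, was 0.0509 under median centring, 0.0285 under quantile normalization and 0.0247 without the genes of the lowest mean levels, up to the 25th percentile, where 40 of the 45 remained and 23 were called; there the smaller set of genes moved it. Median centring takes 1 constant from all values of an array, so it moved the difference of every gene by the same amount. The cause of the remaining shifts was not tested. Requiring a fold change of 1.5 left 1 of the 45 (1 higher, 0 lower) and 923 of all genes (451 higher, 472 lower), by the construction of that threshold. The length relation kept its sign, with a Spearman rho between -0.51 and -0.39.

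With the replicate number as a block, 23 of the 45 were called, 15 higher and 8 lower, and 3035 of all genes. ORC1 (adjusted p = 0.062), POL32 (0.085) and CDC9 (0.065) were then not called. Deviations of same-numbered arrays from their group means correlated at -0.14, -0.07 and -0.19, and those of differently numbered arrays at -0.01 to 0.18. Same-numbered arrays thus showed no positive correlation. With so few arrays this cannot show whether they shared a batch. Sequence-based comparisons were not made here.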

Other observations

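Genes directly beside the replication genes included some with large changes. ERC1, the neighbour upstream of RRM3 on the opposite strand, fell by 2.24 (SE 0.06, adjusted p = 2.1e-07). HAP4, which encodes the activating subunit of a regulator of respiratory genes and lies upstream of SLD2, fell by 1.38 (adjusted p = 1.2e-05), while SLD2 rose by 0.22. SIP4, the gene of a transcription factor of gluconeogenic genes upstream of DPB11, fell by 1.53 (adjusted p = 2e-05), while DPB11 was not called. STE13, the gene of a peptidase that processes alpha-factor and lies downstream of RFC1 on the opposite strand, rose by 0.85 (adjusted p = 2.6e-05), while RFC1 fell. These neighbours were chosen after their values were seen.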
